A study of Mus musculus with 3 samples.

Results

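Flag and MYC peaks of the same POH1-Flag cells were compared on chromosomes 1 to 19 and X, with all peaks of both deposited lists on those chromosomes as members. These are 25046 peaks, 2805 from the Flag library and 22241 from the MYC library, of 37758 peaks in all 3 libraries of the study. The cells were Pan02, a mouse line of pancreatic ductal adenocarcinoma, stably expressing POH1-Flag. POH1-Flag is the proteasome subunit POH1 with a short Flag epitope. The study's remaining library, MYC in Pan02 cells with the vector, holds 11925 peaks on these chromosomes and is used here only where stated. The method was CUT&Tag, in which an antibody tethers a transposase to chromatin and the DNA around it is cut and tagged for sequencing. Each antibody was represented by 1 library, so the differences below have no replicate check. All intervals are 95% intervals that cover counting error only.

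POH1, encoded by Psmd14, is the zinc-dependent deubiquitinase of the proteasome lid and removes ubiquitin chains from proteins as they are degraded. MYC is a basic helix-loop-helix leucine zipper transcription factor that pairs with MAX, binds E-box motifs, whose best known form reads CACGTG, and occupies the promoters of many active genes, above all those of ribosome production, metabolism and growth. MYC protein is short-lived and is degraded by the proteasome. An anti-Flag antibody reports where the tagged POH1 lies near DNA, and it can also leave signal that owes nothing to the tag. The Flag library has no counterpart with the same antibody in cells without the tag among the libraries used here, so signal from the tag and other signal of the anti-Flag antibody cannot be told apart.

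The contrast between the antibodies was clearest at transcript starts, and 4 promoters are printed as examples. They were picked by their peaks, the first 3 also by a motif, so they are no evidence for the contrast. They run from 250 bases before to 50 bases after a RefSeq transcript start on GRCm38.p6, which need not be the outer end of the gene. They read 5′ to 3′ on the strand of the gene, with CACGTG in capitals. The first 3 had the strongest MYC summits inside a window with that motif and no Flag peak at either end of the gene. The last, Eef1a1, was the gene with a Flag summit inside the window. Hdgf, which encodes a growth factor that binds chromatin, is at chr3:87906071-87906370 on the plus strand. Eif5a, a translation factor gene, is at chr11:69921337-69921636 on the minus strand. Golim4, which encodes a Golgi membrane protein, is at chr3:75956900-75957199 on the minus strand. Eef1a1, the gene of the elongation factor that brings aminoacyl-tRNA to the ribosome, is at chr9:78481675-78481974 on the minus strand.
Hdgf: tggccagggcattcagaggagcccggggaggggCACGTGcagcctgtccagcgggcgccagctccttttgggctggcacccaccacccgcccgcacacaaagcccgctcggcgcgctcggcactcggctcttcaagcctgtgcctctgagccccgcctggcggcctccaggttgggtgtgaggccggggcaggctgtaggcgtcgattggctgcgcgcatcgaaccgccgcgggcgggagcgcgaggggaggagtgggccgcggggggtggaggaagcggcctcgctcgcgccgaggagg
Eif5a: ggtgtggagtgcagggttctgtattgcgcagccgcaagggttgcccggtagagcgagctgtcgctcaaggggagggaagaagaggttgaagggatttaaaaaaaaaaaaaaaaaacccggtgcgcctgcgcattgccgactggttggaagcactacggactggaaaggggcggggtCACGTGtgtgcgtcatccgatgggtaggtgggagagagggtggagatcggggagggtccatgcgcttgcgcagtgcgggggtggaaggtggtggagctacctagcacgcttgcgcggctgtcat
Golim4: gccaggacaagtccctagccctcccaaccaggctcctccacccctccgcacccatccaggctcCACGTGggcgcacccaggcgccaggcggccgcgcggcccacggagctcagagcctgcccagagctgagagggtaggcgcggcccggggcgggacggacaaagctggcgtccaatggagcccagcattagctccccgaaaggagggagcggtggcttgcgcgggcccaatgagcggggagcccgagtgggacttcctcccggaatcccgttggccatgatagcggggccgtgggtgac
Eef1a1: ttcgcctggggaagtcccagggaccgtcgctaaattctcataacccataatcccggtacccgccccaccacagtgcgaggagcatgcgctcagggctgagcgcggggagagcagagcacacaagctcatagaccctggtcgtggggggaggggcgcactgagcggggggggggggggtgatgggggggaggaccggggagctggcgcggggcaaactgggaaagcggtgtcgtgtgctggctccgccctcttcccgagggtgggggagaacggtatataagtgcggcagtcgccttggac

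Counting from 1 at the 5′ end of each window, the motif began at base 34 in Hdgf, where the MYC summit of 87 reads lay at base 4. In Eif5a the motif began at base 177 and the MYC summit of 78 reads lay at base 164. In both genes the transcript start of the window lies inside the gene. From the outer end of the gene the MYC summit lay 16 bp away in Hdgf and 485 bp away in Eif5a. In Golim4 the motif began at base 64 and the MYC summit of 62 reads lay at base 114. The Eef1a1 window held no CACGTG. Its MYC summit of 59 reads lay at base 100 and its Flag summit of 15 reads at base 282, on the other side of the start. Read numbers here and below are pileups at the summit, recovered from the authors' fold and −log10 p values. CACGTG reads the same on both strands. It was found in 8.01% of 17274 promoters of this length, 11.4% of the 6945 with a MYC summit within 1 kb of the start (10.6 to 12.1%) and 15.3% of the strongest 10th of those (12.8 to 18.1%). Of promoters of genes with no MYC summit at either end it was in 5.73% (5.29 to 6.20%). The same window held a median of 23 CG dinucleotides in promoters with MYC and 5 in those without, and the part of CG content in the motif counts was not tested. Of the 17 genes with a Flag summit within 1 kb of the start, 1 had CACGTG in its window.

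Flag peaks were fewer and narrower than MYC peaks. The Flag list covered 1.02 Mb and the MYC list 11.1 Mb. Depth was estimated from the lowest background of each list alone. As a pileup at a summit it was 0.946 reads for Flag and 0.826 for MYC, and divided by the smallest peak width, 233 and 202 bp, taken as the fragment length, it was 4.06 and 4.09 reads per kb, which puts the depths at 1 to 1.01. Summit pileups had a median of 14 reads for Flag (quartiles 12 and 18, highest 413) and 15 for MYC (11 and 23, highest 343). The authors' fold enrichment had medians of 5.26 and 5.23. A single peak of either list therefore rests on few reads.

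Of the Flag peaks, 45.2% met a MYC peak by at least 1 bp (1267 of 2805, 43.3 to 47.0%), and 5.70% of the MYC peaks met a Flag peak (1268 of 22241, 5.40 to 6.01%). MYC peaks cover 0.425% of the sequence on these chromosomes. The MYC list of vector cells met 41.1% of Flag peaks (39.3 to 43.0%). Both MYC lists met 830 Flag peaks (29.6%), neither met 1214 (43.3%), the POH1-Flag list alone met 437 and the vector list alone 324. With the MYC list shortened to its 2805 strongest peaks, 7.77% of Flag peaks met one (6.84 to 8.82%).

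Summit distances fell into a near and a far group. Over all Flag summits the median distance to the nearest MYC summit was 3023 bp (quartiles 61 and 74158), a value in the gap between the groups. Flag peaks that met a MYC peak had their summit a median of 53 bp from a MYC summit (18 and 123), and Flag peaks that met none had it a median of 62515.5 bp away (17584.5 and 168947). Within 50 bp of a MYC summit lay 21.9% of Flag summits (20.4 to 23.5%), and within 250 bp 41.6% (39.8 to 43.5%). For scale, summits of vector MYC peaks that met a POH1-Flag MYC peak lay a median of 69 bp from a MYC summit (26 and 155). From the MYC side, the median distance to the nearest Flag summit was 398037 bp.

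**Figure D1:**
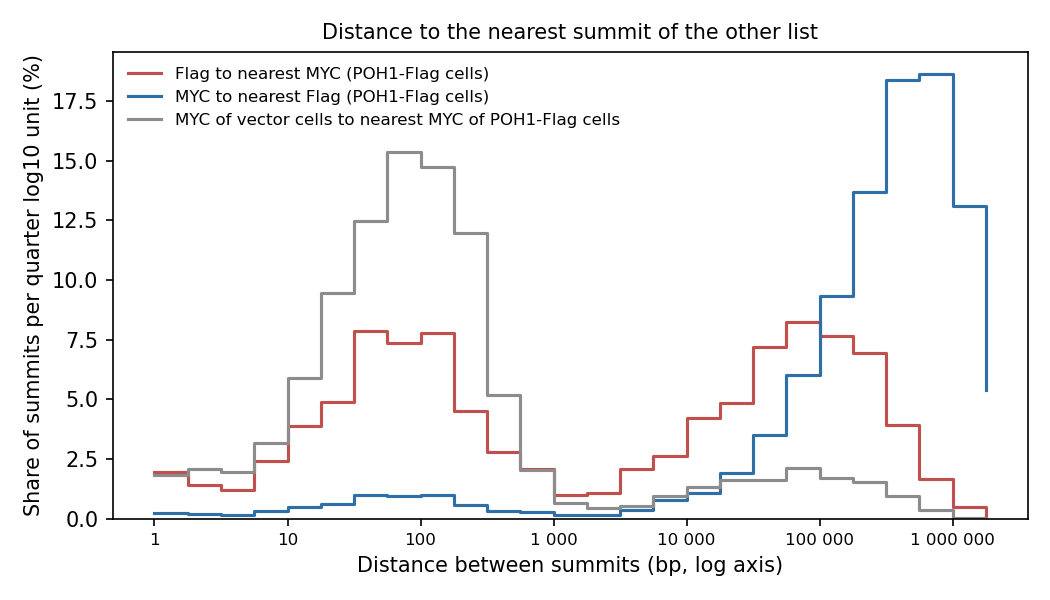
Distance from each summit to the nearest summit of another list, on a log axis in bp (a distance of 0 is drawn at 1), as the share of the summits of the first list per bin of 0.25 log10 units. Flag summits form 2 groups on either side of their median of 3023 bp, most MYC summits lie over 100 kb from a Flag summit, and vector MYC summits mostly lie within 250 bp of a POH1-Flag MYC summit (74.5%).

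Shared sites were common among the strongest Flag peaks and, outside its very top, uncommon in the MYC list. Flag peaks were ranked by −log10 q and divided into 10 equal bins, and 20.6% of the weakest bin and 95.7% of the strongest met a MYC peak. In the MYC list the same shares were 5.17% in the weakest bin, 3.51% in the ninth and 8.54% in the strongest. Of the 100 strongest Flag peaks 99 met both MYC lists, and of the 100 strongest MYC peaks 77 met a Flag peak. Of the 1000 strongest MYC peaks 147 did. The 100 strongest MYC peaks also lay elsewhere than the next ones, with 19 at a gene end and 53 distal, against 646 at a gene end among the strongest 1000.

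The strongest Flag peaks had similar pileups with the MYC antibody in both kinds of cells. The first by −log10 q, at chr11:89081617-89082164, in the body of the predicted gene Gm525, had 285 reads with Flag, 223 with MYC in POH1-Flag cells and 227 with MYC in vector cells. The next, at chr9:35305141-35305715 and 29491 bp from the nearest gene, Rpusd4, had 281, 231 and 283 reads. A site in the body of Chl1, which encodes a neural cell adhesion molecule, at chr6:103648974-103649436, had 230, 220 and 233 reads, with the Flag and MYC summits 1 bp apart. A site at chr12:3109743-3110207, far from any gene, had 217, 188 and 213 reads, with summits 2 bp apart. The fifth, at chr17:13305846-13306381, had 211, 157 and 162 reads. At each of these 5 sites the signal was thus also present with the MYC antibody in cells labelled as vector, at 162 to 283 reads.

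Over 1252 Flag and MYC peaks that formed mutual best pairs, pileups of Flag and MYC went together across sites (Pearson r 0.852 and Spearman rho 0.655 on log2 reads, as a description, since sites share their libraries and base composition). Each pileup was divided by the lowest background pileup at a summit of its own library, 0.946 reads for Flag and 0.826 for MYC, and the median log2 ratio of MYC to Flag was then −0.25 (−0.29 to −0.22), with MYC higher at 374 pairs (29.9%). Scaling by depth alone, as the background per kb gives it, moved all ratios by −0.21 and gave a median of −0.46 (−0.50 to −0.42), with MYC higher at 216 pairs (17.3%). The ratio's exact conditional Poisson interval lay above 1 at 53 pairs and below 1 at 39 under the first scaling, and at 36 and 132 under the second. For the 29 pairs at gene ends the median was 0.15 (−0.09 to 0.90) under the first scaling and −0.06 (−0.30 to 0.69) under the second, so its sign depends on the scaling. For the 687 distal pairs it was −0.29 (−0.34 to −0.25) and −0.50 (−0.54 to −0.45). A pair needs a called peak in both lists, and the lowest pileups among pairs were 7 reads for Flag and 5 for MYC. The part of these unequal limits in the median ratios was not tested, so the medians do not rank the antibodies at shared sites.

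By position, MYC summits were concentrated at gene ends and Flag summits were not. A summit was placed at an end when it lay at most 1 kb from an end of a protein-coding RefSeq gene, in the body when farther inside a gene, nearby when 1 to 10 kb outside, and otherwise distal. At an end lay 43 Flag summits (1.53%, 1.14 to 2.06%) and 8079 MYC summits (36.3%, 35.7 to 37.0%), where 3.01% of the sequence lies. In bodies were 962 Flag summits (34.3%) and 6766 MYC summits (30.4%), nearby 203 (7.24%) and 1669 (7.50%), and distal 1597 (56.9%) and 5727 (25.7%). Of the sequence, 37.9% is in bodies, 8.29% nearby and 50.8% distal.

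Per Mb of sequence, Flag summits numbered 0.549 at ends (exact Poisson interval 0.397 to 0.739) and 1.21 in distal sequence (1.15 to 1.27), which is 0.455 times the distal density. MYC summits numbered 103 per Mb at ends and 4.33 in distal sequence, a density 23.8 times higher at ends. MYC summits were thus 188 times as dense as Flag summits at ends and 3.59 times as dense in distal sequence. Flag peaks that met no MYC peak had 0.179 summits per Mb at ends and 0.680 in distal sequence. The share at ends was 0.712% in the weakest bin of Flag peaks and 2.50% in the strongest, against 14.6% and 65.3% for MYC. The median distance to the nearest gene end was 63492 bp for Flag (18457 and 207140) and 6498 bp for MYC (204 and 38574).

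**Figure D2:**
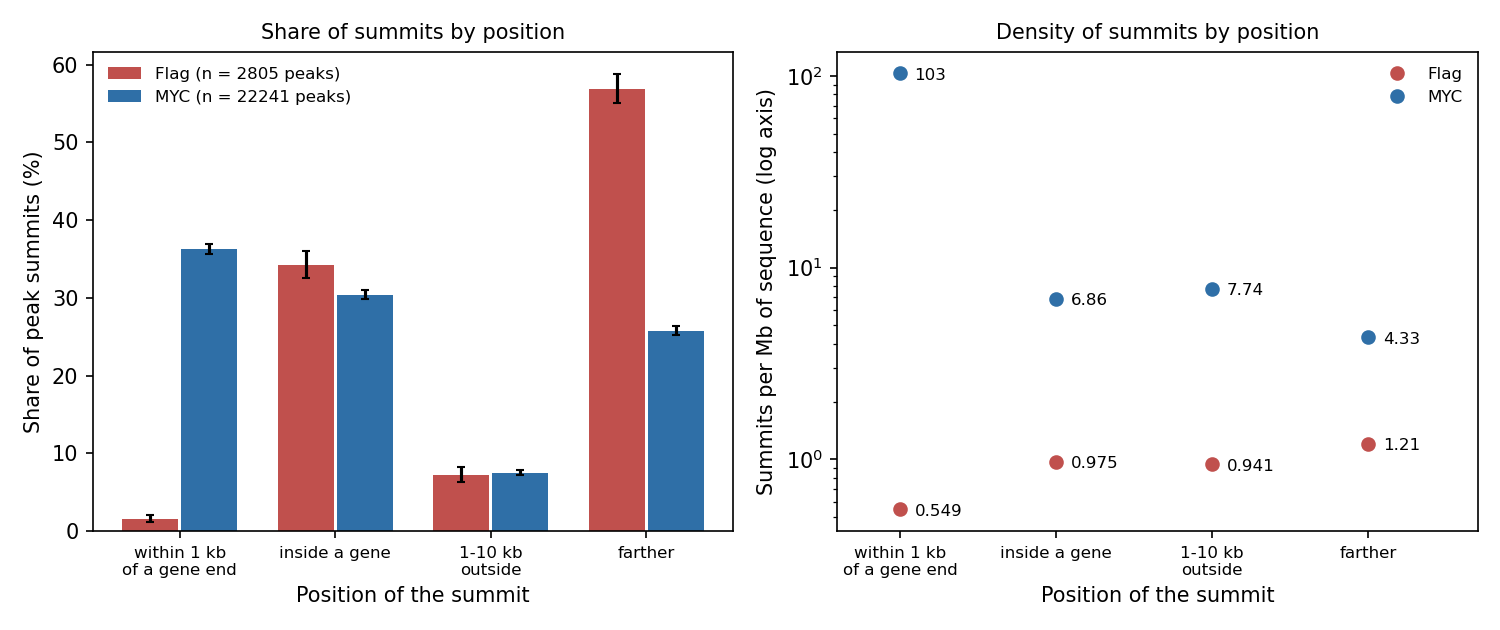
Left, the share of the 2805 Flag and 22241 MYC summits in each position, with Wilson 95% intervals as bars on bars that start at 0. Right, the same summits per Mb of sequence on a log axis, where MYC is at 103 and Flag at 0.549 at gene ends and the 2 antibodies are closest in distal sequence, at 4.33 and 1.21.

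Around transcript starts the MYC list had a narrow peak and the Flag list none. Within 250 bp of one of 21045 RefSeq starts lay 5891 of 21596 MYC summits on chromosomes with listed starts (27.3%, 26.7 to 27.9%) and 3 of 2750 Flag summits (0.109%, 0.0371 to 0.320%). Within 1 kb lay 33.9% of MYC summits (33.3 to 34.5%) and 0.509% of Flag summits (14 peaks, 0.304 to 0.853%). The 7318 MYC summits within 1 kb had a median offset of 6 bp downstream of the start (quartiles −139 and 108). The 14 Flag summits had quartiles of −313.25 and 537.75 bp, with 4 upstream and 10 downstream.

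**Figure D3:**
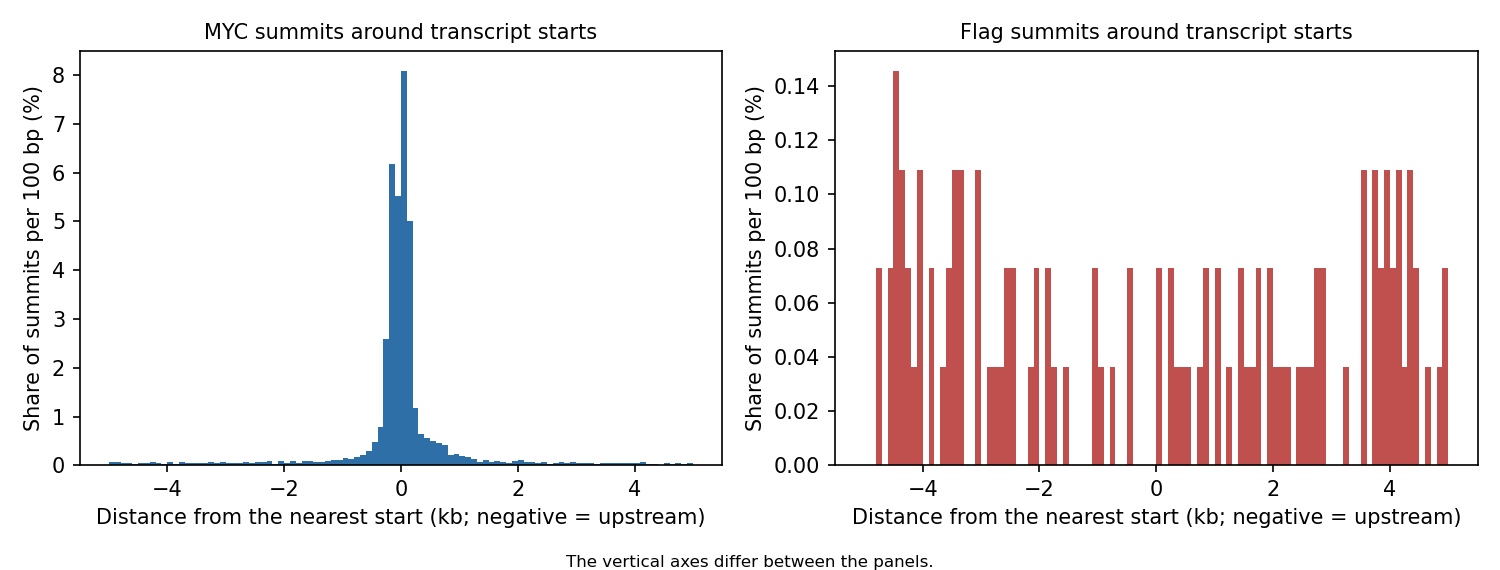
Share of MYC summits (left) and of Flag summits (right) per 100 bp of distance from the nearest RefSeq transcript start, in kb, with negative values upstream. MYC summits pile up at the start, the Flag panel has no peak there and the vertical axes differ.

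Genes with a MYC summit at an end mostly had it at the start, and the few with a Flag summit were split about evenly between the ends. Where strand was known, 6945 genes had a MYC summit at the start and 491 at the far end, and 273 of these had both. For Flag it was 17 at the start and 18 at the far end, with 1 gene at both. Of the 491 MYC peaks at far ends 261 also lay within 1 kb of a transcript start, as did 1 of the 18 Flag peaks. Near the limit of 1 kb the lists held 5 Flag summits from 900 to 1000 bp and 4 from 1000 to 1100 bp from an end, and 144 and 141 MYC summits.

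A Flag summit at an end was found for 43 of 21631 protein-coding genes, a background of 0.199%, and a MYC summit for 8754, a background of 40.5%. MYC without Flag was found at 8722 genes, a background of 40.3%. Both were found at 32 genes (0.148% of all genes), 74.4% of the genes with Flag and 0.366% of those with MYC. Of the 43 genes 9 are predicted models. The Flag peaks behind them had 9 to 96 reads with a median of 19, and 4 had their summit within 250 bp of the end, 9.30% against 75.02% for end peaks of MYC. At 29 genes the Flag peak met a MYC peak, and at 18 genes with a MYC end summit the nearest MYC summit lay within 50 bp of the Flag summit. A vector MYC summit was present at 30 of the 43. At 16 genes the strongest MYC summit at an end had more reads than the Flag summit. That MYC summit need not lie at the Flag site. At Polr3gl, for example, it was at the far end and the Flag summit at the start.

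At the 3 genes of protein synthesis among them MYC was the stronger signal, as it was at several other genes. At Eef1a1 the Flag summit had 15 reads, 31 bp from the start, against 59 with MYC and 48 with MYC in vector cells. The ratio of MYC to Flag, scaled by the lowest background pileup as are the ratios below, was 4.50 there (2.52 to 8.54). At Rps29, a gene of the small ribosomal subunit, Flag had 22 reads and MYC 50 (vector 45), a ratio of 2.60 (1.55 to 4.51), with the Flag and MYC summits 45 bp apart and peaks of 463 and 1027 bp. At Lars2, the mitochondrial leucyl-tRNA synthetase gene, both summits lay inside the gene before its far end, at 653 and 682 bp, with 29 and 56 reads (vector 45), a ratio of 2.21 (1.39 to 3.59). These 3 ratios stayed above 1 with their intervals when pileups were scaled by depth alone. This was not particular to protein synthesis. Of all 29 pairs at gene ends, the interval lay above 1 at 9 and below 1 at 1, or at 7 and 2 scaled by depth. Outside the naming rule, Etnk1 had a ratio of 3.43 (1.57 to 8.30), Nucks1 2.91 (1.41 to 6.48) and Zfp746 2.86 (1.33 to 6.68).

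Other genes with strong Flag peaks at an end included a Wnt and a chromatin gene. Wls, needed for the secretion of Wnt proteins, had the strongest, with 96 reads against 98 with MYC and 81 with MYC in vector cells, 862 bp beyond its far end, and a ratio of 1.17 (0.873 to 1.56). Kdm1a, the gene of the histone demethylase LSD1, had 26 reads 412 bp inside its start, with 24 for MYC at a summit 1 bp away and 13 in vector cells, a ratio of 1.06 (0.581 to 1.91). Kdm1a had 3 further Flag summits and 3 further MYC summits in its body. At these genes no difference between the antibodies was detectable at this depth. At Oasl1, an antiviral gene of the oligoadenylate synthetase family, Flag had 27 and MYC 44 reads (vector 38) at summits 2 bp apart, 651 bp before the start, and the interval of the ratio was 1.13 to 3.13, or 0.979 to 2.72 scaled by depth.

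Asmt, the gene of the last enzyme of melatonin synthesis, had 21 Flag and 43 MYC reads (vector 26), with a ratio of 2.34 (1.36 to 4.16). At Adgb, an androglobin gene, Flag had 24 reads 248 bp beyond the far end, against 17 in each MYC library, with a ratio of 0.811 (0.409 to 1.57). Polr3gl, which encodes an RNA polymerase III subunit, had 19 Flag reads 428 bp from the start. Vmn2r2, a vomeronasal receptor gene, had 22 Flag and 20 MYC reads (vector 12). Vomeronasal receptor genes and several of the predicted genes have close copies, and how reads with several matches were handled is not given in the sources used here. At 11 genes (0.0509% of all genes) there was a Flag summit and no MYC summit at an end. Outside predicted genes, Them7 had the largest −log10 q of these (12.7), with 23 Flag reads 786 bp beyond its far end, no MYC peak within 205743 bp and 14 reads with MYC in vector cells. Speer4c had more Flag reads, 32, at a −log10 q of 4.56. At P2ry6, also among these 11 genes, the Flag peak met a MYC peak with its summit 50 bp away, beyond the limit of 1 kb. Besides Them7, a vector MYC summit lay at an end of P2ry6, Lypd4 and the predicted LOC100504180.

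Of the 8 genes with the strongest MYC summits at an end by −log10 q, Wls and Lars2 had Flag and the other 6 had no Flag summit at an end, in the body or nearby. These were Hdgf with 87 reads, Eif5a with 78, Tbl2 with 74, Saysd1 with 69, Rnf13 with 68 and Adss, an enzyme gene of AMP synthesis, with 63. Psmd14, the gene of POH1 itself, had a MYC summit of 24 reads 177 bp from its start and no Flag summit at an end, in the body or nearby. Myc had a MYC summit of 20 reads at an end and Max one of 39, both without Flag.

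Gene groups that MYC marked held few Flag summits at ends, as did all genes. The 577 distinct genes in 23 lists held 377 with a MYC summit at an end and 4 with a Flag summit, namely Eef1a1, Rps29, Lars2 and Vmn2r2. These 4 are 0.693% of the listed genes against 0.199% of all genes, so a count of 0 in a list of this size does not set it apart. MYC summits were at an end of 47 of 50 core MYC targets, with 80 reads at the nucleolin gene Ncl, of 50 of 56 cytosolic ribosomal protein genes, of 34 of 36 genes of tRNA synthetases and translation factors, with 67 reads at Xpot, and of 23 of 24 unfolded protein and ATF4 response genes, with 57 at the chaperone gene Pdia4. Among genes of the proteasome they were at 8 of 9 genes of the lid, 10 of 10 of the base and 21 of 29 of the core, activators and chaperones, where Psme2 had 42 reads. None of these proteasome genes had a Flag summit at an end. Flag summits were in the body of Psmd5 and near Psmb8.

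For cell cycle and replication it was 33 of 36 genes, with 56 reads at Ccne2 and 50 at Wee1, for AP-1 and YAP genes 20 of 22, for p53 targets 21 of 23, for oxidative phosphorylation 28 of 34, for pancreatic cancer drivers 17 of 20, for deubiquitinases 26 of 34 and for the MYC network 18 of 28. None of these lists had a Flag summit at an end. Flag summits lay in the body of Cdk6, Gnas and Otub1, and nearby at Hspd1, Hspe1, Cct5, Polr1b, Rfc3, Cdkn1a and Cdkn2a, genes printed here because the counts are small and not by the naming rule. With Flag in any of the 3 positions core MYC targets numbered 4 of 50 (8%), against 5.13% of all genes. All of these shares are read against the background of 40.5% of genes with a MYC summit and 0.199% with a Flag summit.

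Lists of cell identity had smaller shares of genes with a MYC summit at an end than the lists above, and some were near the 40.5% of all genes. Of mesenchymal genes 6 of 15 had one, with 38 reads at Vim, of epithelial and ductal genes 5 of 15, with 21 reads at Spp1, of endocrine islet genes 3 of 15, of fibroblast genes 2 of 15, of immune cell genes 2 of 20 and of acinar genes 0 of 19. Peaks are not expression, so these counts do not measure what the line expresses. Flag had no end summit in any of these 6 lists. Olfactory receptor genes had neither signal at an end in 23 genes, and vomeronasal receptor genes had MYC at 2 of 20, with 25 reads at Vmn1r4, and Flag at 1.

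Inside genes the antibodies were less far apart. A Flag summit in the body was found in 781 genes, a background of 3.61%, a MYC summit in 4229, a background of 19.6%, and both in 582, a background of 2.69%. Flag without MYC was found in the bodies of 199 genes, a background of 0.92%. The 582 are 74.5% of the genes with Flag and 13.8% of those with MYC. Genes with a Flag summit in the body were long, with a median of 156 kb (138 to 175) against 59.7 kb (57.2 to 62.1) for MYC and 17.3 kb for all genes. In genes of under 10 kb 0.129% had Flag in the body and 3.72% MYC, and in genes of over 300 kb 40.8% and 71.1%. Per Mb of whole gene length, Flag summits in bodies numbered 0.340 in the shortest genes and 0.653 at 10 to 50 kb. They numbered 0.988 at 50 to 100 kb, 1.01 at 100 to 300 kb and 1.06 in the longest. That length includes the 1 kb inside each end, where no body summit can lie, which lowers both antibodies' densities most in the shortest genes. MYC summits in bodies ran the other way on the same measure, from 9.86 in the shortest genes to 3.65 in the longest.

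The list of 25 long neuronal genes, with a median length of 1448 kb, showed the same. Flag summits lay in the body of 17 of them (68.0%) and MYC summits in 22, while 2 had a MYC summit at an end and none a Flag summit. Macrod2 had 4 Flag and 12 MYC summits in its body, and Dlg2 had 2 and 5. These lists were not matched on length.

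The strongest Flag summits in bodies coincided with MYC in both kinds of cells. Besides Chl1, Smo, the gene of the Hedgehog signal transducer, had 226 Flag reads, 161 MYC reads and 167 in vector cells at summits 7 bp apart for the first pair. Atrnl1 had 199, 169 and 170 reads. Mdga2, a gene of a membrane protein of synapses, had 135, 214 and 188, so MYC was higher in both kinds of cells. Tmem267 had 129, 97 and 116 reads, Cldn34d 99, 104 and 103, Ppp1r9a, which encodes an actin-binding protein of neurons, 88, 62 and 64, and D5Ertd579e 56, 59 and 55.

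Genes with the most Flag summits in the body were mostly large. Sfi1, a gene of a centrosome protein, had 8 Flag and 8 MYC summits in 71.5 kb. Pkhd1, the gene of the ciliary protein fibrocystin, had 6 and 3, and Lrp1b, of the LDL receptor family, 6 and 8. Erbb4, a receptor tyrosine kinase gene, had 5 and 4, Dpp10 5 and 7, Tmem267 5 and 5, and Dnah7c 4 and 6. By −log10 q, which ranks peaks as strong or weak throughout, the strongest Flag summit in the body of Erbb4 had 22 reads and that of Lrp1b 21, far below Chl1. Pkhd1, Erbb4, Dpp10 and Dnah7c lie on chromosome 1 and Lrp1b on chromosome 2.

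A Flag summit nearby, 1 to 10 kb outside, was found for 312 genes, a background of 1.44%, a MYC summit for 5596, a background of 25.9%, and both for 181, a background of 0.837%. In any of the 3 positions Flag was found for 1110 genes, a background of 5.13%, MYC for 13049, a background of 60.3%, and both for 903, a background of 4.17%. Next to Tmem196 Flag had 161 reads, MYC 155 and vector MYC 146. Between Tmem125 and Cfap57 a site of 1584 bp had 145, 126 and 102 reads. At Calb2, the calretinin gene, Flag had 57 reads and the MYC libraries 28 and 33, and at Ptpn12, a tyrosine phosphatase gene, 55 against 29 and 34, so Flag was the highest of the 3 at both. Tcstv3 had 63, 53 and 70 reads, Aadac 56, 39 and 44, and Brox 47, 54 and 57.

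Flag peaks had a median width of 314 bp (250 and 412) and MYC peaks 434 bp (280 and 650). The smallest width in each list limits how narrow a peak can be. At equal pileup the difference grew with the signal. At 10 to 12 reads the medians were 271.5 bp for Flag (263 to 280), 378 bp for MYC at gene ends (366 to 389) and 295 bp for MYC elsewhere. At 20 to 29 reads they were 367 bp (351 to 383), 637 bp (627 to 650) and 582 bp (572 to 596). At 30 reads or more they were 457.5 bp (429 to 498), 810 bp (797 to 822) and 733 bp (715 to 756). At 8 to 9 reads Flag peaks, at 255 bp (242 to 285), were not narrower than MYC elsewhere, at 251 bp (245 to 256). MYC peaks that met a Flag peak had 365.5 bp (351 to 420) at 20 to 29 reads and 469 bp (434 to 515) at 30 or more, close to the Flag peaks. At fewer reads they were somewhat wider than Flag peaks. They had 292 bp (272 to 314) at 8 to 9 reads, and 318 bp (303 to 344) against 293 bp (285 to 303) at 13 to 15. In the 1252 pairs the Flag peak was the wider in 814 and the MYC peak in 437, with medians of 369 and 327 bp.

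**Figure D4:**
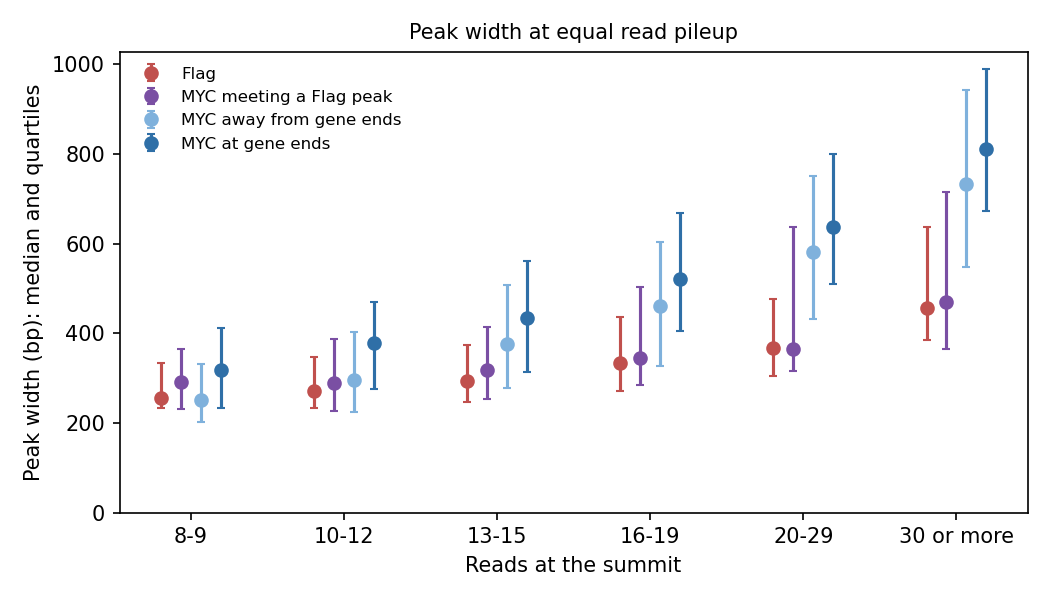
Median peak width in bp with quartiles, by the number of reads at the summit, for Flag peaks, MYC peaks that meet a Flag peak, MYC peaks away from gene ends and MYC peaks at gene ends. At 20 to 29 reads Flag peaks and the MYC peaks that meet them lie at 367 and 365.5 bp, below MYC peaks at gene ends at 637 bp.

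The share of MYC peaks that met a Flag peak differed by position, and it is bounded by the Flag peaks there. These numbered 43 at ends and 1597 in distal sequence. A Flag peak was met by 0.371% of MYC peaks at ends (30 of 8079, 0.260 to 0.530%), 6.55% of those in bodies (5.98 to 7.16%), 5.75% of those nearby (4.73 to 6.97%) and 12.2% of distal ones (11.4 to 13.1%). From the Flag side, a MYC peak was met by 29 of 43 Flag peaks at ends (67.4%, 52.5 to 79.5%), 46.4% in bodies, 46.8% nearby and 43.6% of distal ones (41.2 to 46.1%). Flag peaks with a MYC partner had a median of 17 reads and those without 13.

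Flag peaks were denser on chromosomes 1, 2 and 3 than on any other, and MYC peaks were not. Chromosome 1 had 2.29 Flag peaks per Mb, chromosome 2 had 2.06 and chromosome 3 had 1.76, while the other 17 ranged from 0.628 on chromosome 18 to 1.002 on chromosome 17. Chromosomes 1 to 3 held 39.0% of Flag peaks (37.2 to 40.8%), 22.1% of MYC peaks (21.5 to 22.6%) and 23.5% of vector MYC peaks. In bins of 10 Mb, chromosome 1 had 13 to 36 Flag peaks with a median of 21, so the excess was not at 1 site. The local background at Flag summits had a median of 2.10 reads on these 3 chromosomes and 1.61 elsewhere, and at MYC summits 1.96 and 1.9998. The part of that background in the Flag density was not tested. The share of Flag peaks that met a MYC peak was 42.5% on chromosomes 1 to 3 (39.6 to 45.5%) and 46.8% on the others (44.5 to 49.2%), and the share of MYC peaks that met a Flag peak was 9.52% and 4.62%. Chromosome X had few MYC peaks, 2.76 per Mb against 6.13 to 13.04 on the autosomes, while its 0.837 Flag peaks per Mb lay within the range of the others.

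**Figure D5:**
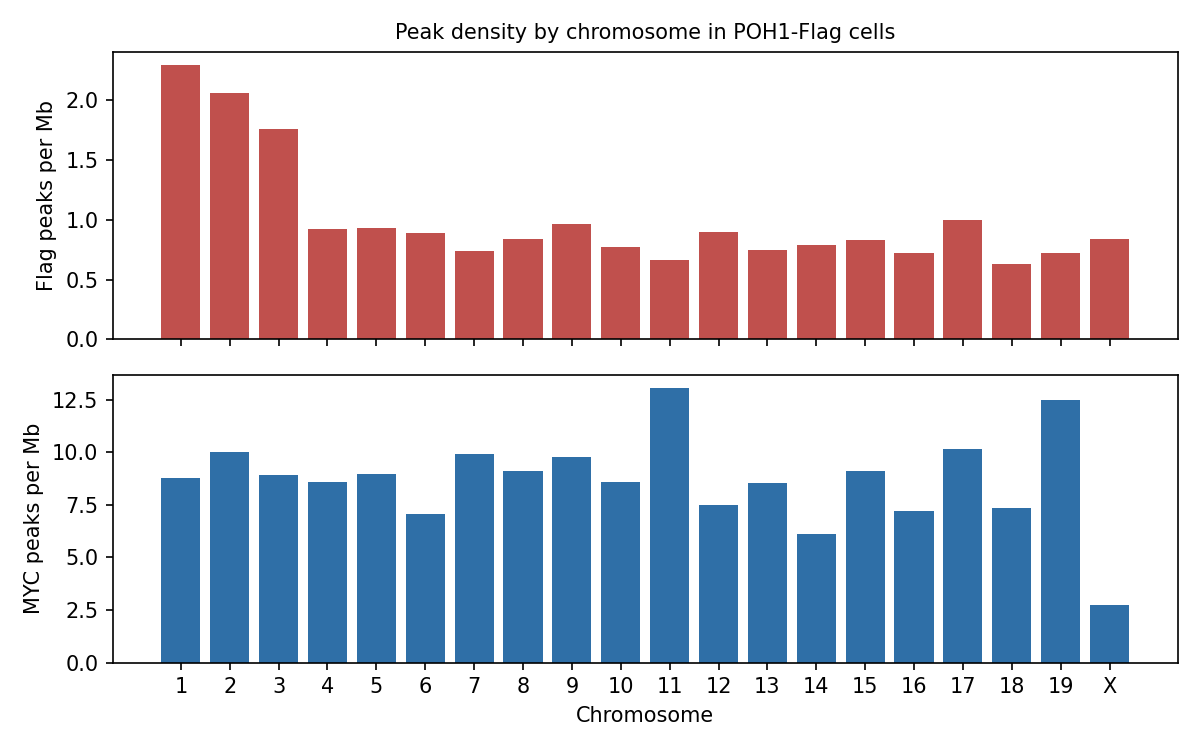
Flag peaks per Mb (top) and MYC peaks per Mb (bottom) on each chromosome, with bars that start at 0. Chromosomes 1 to 3 stand at 1.76 to 2.29 Flag peaks per Mb, above 0.628 to 1.002 on the others, and have no such excess of MYC peaks.

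The first and last 500 kb spanned by peaks or genes on each chromosome, 0.768% of the span, held 66 Flag peaks (2.35%, 1.85 to 2.98%) and 225 MYC peaks (1.01%, 0.888 to 1.15%). These Flag peaks had a median of 74 reads against 14 in the whole list, and 28 of the 100 strongest Flag peaks were among them, as were 27 of the 100 strongest MYC peaks and 29 of the 100 strongest vector MYC peaks.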

How the data were processed

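CUT&Tag libraries of Pan02 cells, 1 per antibody and genotype, were compared through their deposited peak lists, 1 list for each library. Per the submitters' processing notes, the tools were BWA 0.7.17-r1188, MACS2 2.2.7.1, Trim Galore 0.6.6 and FastQC 0.11.9 and the build GRCm38/mm10; their roles, a control library, duplicate handling and a blacklist are not given in these sources.

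Each deposited list gives the authors' score, their fold enrichment (a linear ratio) and their −log10 p and −log10 q for each peak. The deposited peak starts, ends and summit offsets are in bp. Fold and −log10 q were used to rank or filter peaks within a list.

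The whole number of reads at each summit and its background were solved from fold and the Poisson tail, whole in 100% of peaks within 0.01. Pileup ratios were scaled by the lowest background of each library as a pileup, or, as an alternative, per kb after division by the smallest peak width. Read totals were not used. PCR duplicates that were kept would make all intervals too narrow.

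Peaks met when they shared at least 1 bp. Genes were the 21631 protein-coding RefSeq genes of GRCm38.p6 on chromosomes 1 to 19 and X. Starts and strand came from 21045 RefSeq promoters of 17274 genes, with none listed on chromosome 18. Shares have Wilson and medians order-statistic 95% intervals. With 1 library per side there was no test.

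Named genes were Myc, Psmd14 and Max, the 8 with the largest −log10 q at an end for each antibody and for both, in the body and nearby for Flag, the 8 with the most Flag summits in the body, the 5 strongest Flag peaks, and from each list the 2 strongest in MYC, of which some are printed, and any with Flag at an end. Predicted genes were left out of the rule. A gene chosen by the rule is not reported here. The members, gene lists and rules were chosen with earlier results of these data known. Of 580 list entries 575 matched by symbol, 3 by synonym and 2 (Ctrc and Olfr151) not. The steps were tested on simulated data. Python 3.11.15, numpy 2.4.6, pandas 2.3.3 and scipy 1.17.1 were used. Alternatives were stricter thresholds, other overlap and end rules, equal list lengths, all contigs and the vector MYC list.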

Additional observations from a re-analysis of the deposited data

Results flagged for a closer look

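Peaks on chromosome Y, the mitochondrial genome and unplaced contigs, which no comparison above used, numbered 131 in the Flag list (4.46% of the deposited peaks) and 406 in the MYC list (1.79%). They stand out as signal outside the chromosomes compared. Of the 131 Flag peaks 108 lay on contigs, 18 on chromosome Y and 5 on the mitochondrial genome, and 100 met a MYC peak (76.3%, 68.4 to 82.8%), against 45.2% on chromosomes 1 to 19 and X. Their median pileup was 31 reads for Flag and 18 for MYC. No control library is among the files, so a level above a control could not be given.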

How the results depend on the processing

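Of 89 alternatives to 17 results, 35 stayed within the interval or within 1.5 times of the value given and 54 moved. At a −log10 q of at least 5, 42.0% of Flag peaks met MYC and 4.38% of MYC peaks met Flag, 47.7% of MYC summits were at an end, genes with an end summit numbered 28 for Flag and 21 for both, genes with a body summit 428 for Flag and 2753 for MYC, Flag to MYC summits were 22701 bp apart, MYC summits 1459 bp from an end, and widths 345 and 570 bp. At a fold of at least 5 the shares were 37.3%, 5.11% and 47.3%, MYC body genes 2507, the distances 36624 and 1712.5 bp, and widths 323 and 562 bp. With equal list lengths the shares were 7.77%, 7.74% and 64.7%, MYC end genes 2228, genes with both 8, MYC body genes 556, the distances 563012 and 223 bp, and the MYC width 763 bp.

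Counting overlap only from 50% of the shorter peak gave 43.2% of Flag peaks, and summits within 250 bp gave 41.6% of Flag and 5.25% of MYC peaks. The vector MYC list gave 41.1% and 17095 bp. All contigs gave 6.04% of MYC peaks meeting Flag and 35.7% of MYC summits at ends. An end of 500 bp gave 0.642% of Flag and 31.7% of MYC summits, 18 genes with Flag and 16 with both, and one of 2 kb gave 2.75%, 40.9%, 76 and 54. Chosen after seeing the data, a limit of 1 kb from a transcript start gave 0.509% and 33.9% of summits, 14 genes with Flag and 13 with both, and leaving out chromosomes 1 to 3 gave 4.62% of MYC peaks meeting Flag, 37.8% of MYC summits at ends, 54189 and 5277 bp to an end for Flag and MYC, and a MYC width of 444 bp. Scaling pileups by depth alone, also added then, gave log2 ratios of −0.46 over all pairs and −0.50 over distal pairs, and its −0.06 at gene ends changed sign within the interval. Under every peak filter and end rule here the share of summits at an end was lower for Flag than for MYC. The stricter limits and shorter lists hold fewer peaks, and the cause of the other moves was not tested. With a median of 14 reads at a Flag summit, single sites cannot resolve small differences. No paired analysis was possible because each group has 1 library.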
